A study of Mus musculus with 2 samples.

Results

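Titin is the giant elastic protein of striated muscle, and its gene Ttn was followed here through every transcript annotated for it in mouse heart. Members were chosen by gene: the Ttn gene itself, which is 1 of 55536 mouse genes in the tables, and its 25 transcripts, of 141862 transcripts in all. All 25 were found in both quantifications that the authors deposited. The data are total RNA-seq of whole heart tissue from 2 B6CASTF1/J mice, a first-generation hybrid made by crossing C57BL/6J with CAST/EiJ. Both were females of 36 days, and the labels name no treatment. Replicate 1 is animal 3 and replicate 2 is animal 4. The labels call them biological replicates with separate biosamples, although they share a donor entry. The input was 300 ng of RNA per library with ERCC spike-ins added, and the mix named is one for stranded libraries with reduced ribosomal RNA. There is 1 group, so the data give levels and the spread between 2 animals, and no contrast between conditions. Whole tissue holds several cell types, and fewer cells of a type cannot be told apart from less RNA per cell.

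Each titin molecule reaches from the Z-disc, where thin filaments of neighbouring sarcomeres are anchored, through the elastic I-band and along the myosin filament of the A-band to the M-band in the middle of the sarcomere. Its I-band part is built of immunoglobulin domains, the N2B and N2A elements and the PEVK stretch, and acts as a spring that sets the passive stiffness of the heart wall. Alternative splicing changes the length of that spring. The N2B form joins the N2B element to the last part of the PEVK stretch and is short and stiff. N2BA forms keep more immunoglobulin and PEVK exons and are more compliant, and N2A is the form of skeletal muscle. The splicing repressor Rbm20 favours the short form. A much shorter form, novex-3, ends inside the I-band.

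Ttn (ENSMUSG00000051747.14) lies on the minus strand of chromosome 2 in build mm10, from 76703980 to 76982547, a span of 278568 nt. Distances below are genomic and counted from the 5′ end of the gene. By the GENCODE M21 annotation, 21 transcripts are protein-coding, 3 are retained introns and 1 is a processed transcript. Coding transcripts of at least 50000 nt were classed as long, those from 10000 nt up to that length as middle, and those under 10000 nt as short. The long class holds 4 transcripts of 81843 to 106824 nt that run from the Z-disc exons to the last exon. Ttn-201 has 192 exons and 26886 codons and is the transcript of the N2B kind. Ttn-203 has 347 exons and 35213 codons and holds both the N2B exon and the exons that Ttn-201 leaves out. Ttn-204 and Ttn-205 have 33467 codons each and lack the N2B exon, as in the N2A form. The middle class holds Ttn-202, which is of the novex-3 kind with 5508 codons, and the fragments Ttn-211 and Ttn-218. The short class holds 14 transcripts of 271 to 3406 nt. The annotation leaves an end open in 15 of the 21 coding transcripts, which means that the cDNA behind them stopped inside the coding sequence.

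The splice junctions that tell the main forms apart are shown first, because most of the sequence of these transcripts is shared. Each is given 5′ to 3′ in the sense of the gene, with the last 20 nt of the exon before the junction in lower case and the first 20 nt of the exon after it in capitals. They were read from the GENCODE M21 transcripts of build mm10.
Ttn-201, from 76.3 to 163.7 kb: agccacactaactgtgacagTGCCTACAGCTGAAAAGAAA
Ttn-203, Ttn-204, Ttn-205 and Ttn-211, same donor, to 78.9 kb: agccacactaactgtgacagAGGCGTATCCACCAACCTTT
Ttn-210, Ttn-218 and Ttn-223, from 150.8 to 163.7 kb: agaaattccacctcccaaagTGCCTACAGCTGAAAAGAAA
Ttn-219, from 124.6 to 163.7 kb: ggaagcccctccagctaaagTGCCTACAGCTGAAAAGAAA
Ttn-222, from 135.2 to 163.7 kb: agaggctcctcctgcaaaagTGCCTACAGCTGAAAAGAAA
Ttn-209, from 156.1 to 163.7 kb: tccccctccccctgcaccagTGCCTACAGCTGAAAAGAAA
Ttn-203, Ttn-204, Ttn-205 and Ttn-211, from 161.4 to 163.7 kb: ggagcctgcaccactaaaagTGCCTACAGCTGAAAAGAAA
Ttn-202, into its own last exon at 62.1 kb: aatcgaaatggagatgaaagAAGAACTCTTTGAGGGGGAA

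The Ttn-201 junction removes an intron of 87437 nt (chr2:76818817-76906253). Ttn-203 has 154 exons in that interval, with 24843 nt in all, 23.5% of its coding length. Of these, 50 are 270 to 290 nt long, about the coding length of an immunoglobulin domain, and 93 are shorter than 130 nt, the kind of exon that fills the PEVK stretch. The lengths of 151 of the 154 are multiples of 3.

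By reads, Ttn was the leading nuclear protein-coding gene of these hearts. It held 1180404 expected counts in replicate 1 and 1178150 in replicate 2. That was 3.04% (95% Wilson interval 3.03 to 3.04%) of 38845613 and 3.09% (3.08 to 3.09%) of 38168674 mouse counts, or about 1 read in 32.9 and 1 in 32.4. In both libraries Ttn ranked 1 by counts among 22015 nuclear protein-coding genes and 4 among all genes. After it by mean count came Myh6, the alpha myosin heavy chain of the adult mouse heart (969197), Atp2a2, the calcium pump of the sarcoplasmic reticulum (546394), and Actc1, cardiac actin (195970). The second quantification put 1272019 and 1275960 estimated counts on Ttn, which is 3.30% and 3.34%, and also ranked it 1.

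Per length, Ttn stood lower. Its TPM, a level per transcript length scaled to a fixed sum per library, was 1109.54 in replicate 1 and 1122.38 in replicate 2, or 1116 ± 9.08 (SD, n = 2). The values place it at rank 30 and 29 of nuclear protein-coding genes. The genes next above by mean TPM were Tpt1 (1142 ± 46.6), Ndufa4 (1152 ± 65.1) and Atp5g1 (1295 ± 157), and those next below were Fth1 (1110 ± 37.1), Hbb-bt (1097 ± 805) and Cox6a2 (1058 ± 36.3), each ± SD with n = 2. Apart from Atp5g1 and Cox6a2, each of these genes had a range over the 2 animals that overlapped the range of Ttn. Myh6 reached 8639 ± 451 TPM with fewer counts than Ttn. In the second quantification Ttn had 1034 and 1064 TPM, at ranks 56 and 54.

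The level per length rests on the length given to the gene. The authors' gene length for Ttn, an average over its transcripts, was 33949 nt in replicate 1 and 34581 nt in replicate 2, well below the 81843 nt of Ttn-201. With all reads of the gene set at the effective length of Ttn-201, a calculation added after the values were seen, its level would be 466 ± 9.90 TPM (SD, n = 2), lower by a factor of 2.39 ± 0.03. Its rank would then be 108 and 97. The authors' credibility intervals for the posterior mean TPM, 1080 to 1093 and 1092 to 1106, do not hold the reported TPM values.

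**Figure D1:**
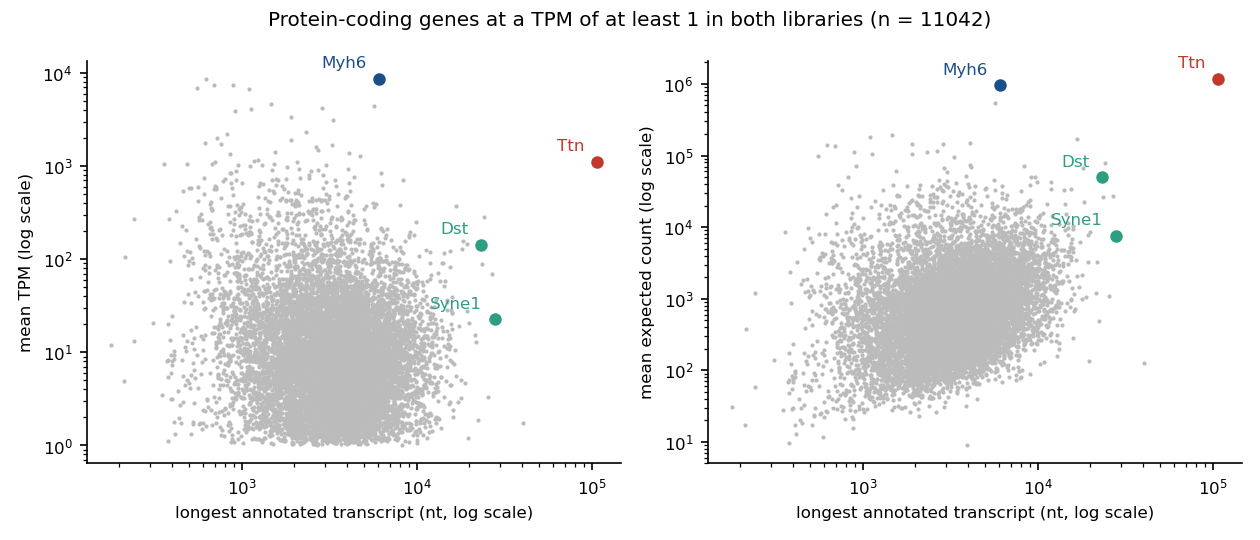
Mean TPM (left) and mean expected count (right) over the 2 hearts against the length of the longest annotated transcript, on log axes, for the 11042 nuclear protein-coding genes at a TPM of at least 1 in both libraries. Grey points are genes, and Ttn stands at the far right in both panels: it is below Myh6 by TPM and above it by count.

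Ttn was the gene with the longest annotated transcript among those 11042 genes, at 106824 nt against a median of 3466 nt. In the same set 28 genes had a higher mean TPM and 45 had more annotated transcripts. The genes next in length included D1Ertd622e, Syne1, Zbtb20, Muc16, Macf1, Dst, Neb and Syne2, with longest transcripts of 21704 to 40378 nt. Of these, Dst, dystonin, a giant linker of the cytoskeleton, had 142.82 and 142.59 TPM and 49359 mean counts. Neb, the giant thin-filament protein nebulin of skeletal muscle, was at 1.87 and 1.86 TPM. So among the 10 longest genes Ttn had both the highest TPM and the most counts.

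Between the animals Ttn differed by far less than 2-fold. Against effective library sizes that allow for composition, replicate 2 was 1.07-fold above replicate 1, a log2 ratio of 0.10 (exact 95% interval 0.096 to 0.104, counting error only). The interval lies above 0, but it leaves out the variation between libraries of the same animal, which 1 library per animal cannot measure. It therefore does not show that the animals differed. The ratio also rests on the scale, since with total counts its log2 was 0.02. It lies under the 2-fold threshold for a call. Over all genes 210 of 13745, or 1.53%, were called between the libraries at an adjusted p under 0.05 and at least 2-fold, and 21.9% passed that p at any fold. Scaled to the spike-ins, the log2 ratio of Ttn was 0.34 and that of the median gene 0.24, against 0.0005 before. Such a change of scale shifts all genes alike.

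The tissue label was checked on marker genes. All 8 cardiomyocyte markers were detected, with a summed level of 31181 and 30960 TPM. Of 9 skeletal muscle markers only the creatine kinase Ckm, which heart muscle also expresses, was detected in both libraries, and Myh4 had 0 TPM in both. The smooth muscle (4 of 4), fibroblast (3 of 3) and endothelial (3 of 3) markers were detected at summed levels of 88.5 to 216 TPM. The 3 erythroid markers summed to 24335 TPM in replicate 1 and 7893 TPM in replicate 2, and all 3 were called lower in replicate 2. Spike-ins took 0.532% and 0.427% of counts. TPM is a share of a fixed total, and the part of the erythroid difference in the levels of Ttn was not tested.

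Among transcripts, the classes fell in a different order by TPM and by counts. By TPM in the first quantification, short coding transcripts held 40.2 ± 0.15% of Ttn (SD, n = 2), long ones 37.4 ± 0.65%, middle ones 21.02 ± 0.65% and non-coding ones 1.41 ± 0.16%. By expected counts the long class held 89.96 ± 0.41%, the middle class 7.55 ± 0.38%, the short class 2.39 ± 0.03% and the non-coding class 0.098 ± 0.010%. A short transcript needs few reads for a given TPM, so the same estimates read as mostly long RNA by counts and as a near-even mix by TPM. The short class exceeded the long one by TPM in both animals (447 against 410 TPM in replicate 1, and 450 against 425 TPM in replicate 2). No test was made of this order, since the classes share reads within a library.

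The second quantification moved TPM from short to long transcripts. There the long class held 42.9 ± 0.33% of TPM, the short class 34.7 ± 0.005% and the middle class 20.7 ± 0.47%. The order of the long and short classes was therefore the opposite of that in the first quantification. Its counts gave the long class 92.3 ± 0.16% and the short class 1.52 ± 0.02%. Non-coding transcripts held 1.75 ± 0.14% of its TPM. By percent of TPM, for the long and short classes the 2 quantifications lay further apart than the 2 animals did within either.

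**Figure D2:**
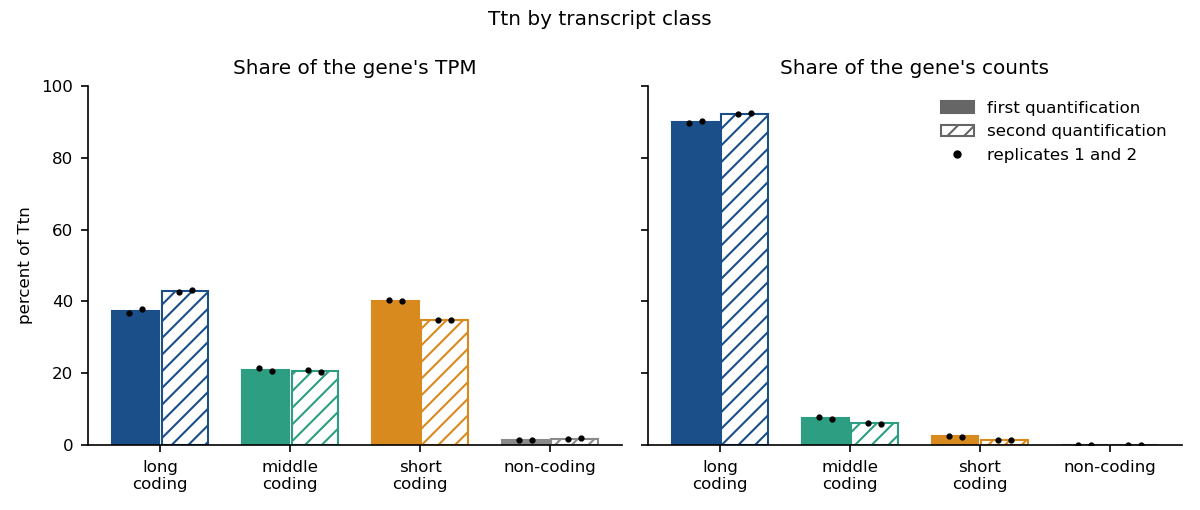
Percent of Ttn held by long, middle and short coding and by non-coding transcripts, as TPM (left) and as counts (right). Filled bars are means of the first quantification, hatched bars of the second, and points are the 2 animals: the long class rises from 37.4% by TPM to 89.96% by counts in the first quantification.

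Transcripts with an open annotated end carried much of the TPM. The 15 coding transcripts of this kind held 54.5 ± 0.37% of the TPM of Ttn in the first quantification and 51.3 ± 0.32% in the second, against 6.63 ± 0.16% and 5.84 ± 0.09% of its counts. The 6 coding transcripts with closed ends, which are the 4 long ones, Ttn-202 and Ttn-225, held 44.1 ± 0.21% and 46.9 ± 0.18% of TPM.

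Few sequence features separate these transcripts. Of 117231 distinct 31-mers in Ttn transcripts, 10774 (9.19%) occur in 1 transcript only. Ttn-201 has 27 of its own, the ones that cross its long junction, out of 81813. Ttn-202 has 6477, 38.5% of its total, because of its own last exon of 6520 nt. Ttn-208, Ttn-213, Ttn-215, Ttn-216, Ttn-220, Ttn-221 and Ttn-224 have none. Other genes share 306 of the 31-mers (0.261%), all with Gm13938, an antisense gene on the plus strand inside Ttn (ENSMUSG00000086354.2, chr2:76722776-76786708). Gm13938 had 0 counts in both libraries and in both quantifications, which allows up to 3 counts in each. Whether the authors' counting used strand is not given in the sources used here.

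Ttn-201, the N2B transcript, was the highest of all and the only long one above 100 TPM. It had 398.59 TPM in replicate 1 and 412.97 in replicate 2, or 406 ± 10.2 (SD, n = 2). That was 36.4 ± 0.62% of the TPM of the gene and 87.0 ± 0.33% of its counts. The second quantification gave 416.8 and 433.3 TPM, 425 ± 11.7. Replicate 2 was the higher animal in both, and the second quantification lay above the first by a factor of 1.05 on average.

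The other 3 long transcripts were low and were shared out differently by the 2 quantifications. Ttn-204, of the N2A kind, had 10.72 and 11.53 TPM in the first quantification, and 20.07 and 20.01 TPM in the second. Ttn-205, which has the same number of codons as Ttn-204 and only 17 of its own 31-mers, had 0.21 and 0.04 TPM, and 0.013 and 0.014 TPM in the second. Ttn-203, with both the N2B exon and the exons skipped by Ttn-201, had 0.00 and 0.08 TPM in the first but 4.07 and 5.08 TPM in the second. In counts, Ttn-203 went from 4.36 and 269.17 to 13954 and 16863. Together these 3 made up 1.01 ± 0.04% of the TPM of the gene in the first quantification and 2.35 ± 0.02% in the second. Within the first quantification, the authors' posterior means for Ttn-205 were 1.73 and 1.52 TPM (5626 and 4813 counts), with credibility intervals of 0.889 to 2.48 and 0.899 to 2.10 TPM that do not hold the reported TPM. Their posterior SD of its count was 1462 and 1023 counts, above its expected counts of 660.19 and 132.00.

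Of the middle class, Ttn-218 was the highest. This fragment of 10229 nt covers 92.6 to 167.8 kb, in the I-band, and has 2 junctions of its own. It had 159.88 and 158.43 TPM in the first quantification and 173.7 and 173.8 in the second. Ttn-202, the novex-3 transcript, had 78.24 and 72.20 TPM, and by the second quantification 42.94 and 41.98 TPM, a factor of 0.564 on average. It has the largest number of its own 31-mers of all 25, and the quantifications still differed on it by more than the animals did. Ttn-211, of 24817 nt, lay between 0.07 and 0.69 TPM in all 4 estimates.

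Ttn-215 led the short class. It is a fragment of 2159 nt and 12 exons from the 5′ end of the gene to 17.5 kb, with 645 codons and an open 3′ end. It had 332.09 and 335.27 TPM in the first quantification, 29.9 ± 0.04% of the gene, on 1.80 ± 0.03% of its counts. The second quantification gave 207.9 and 220.0 TPM, 20.4 ± 0.41% of the gene. The animals lay close together in each, and the quantifications lay apart by a factor of 0.641.

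The fragments that end near 167.8 kb came next. Ttn-219 (1633 nt) had 66.58 and 64.81 TPM in the first quantification, and 55.2 and 54.0 TPM in the second. Ttn-222 (2130 nt) had 26.16 and 26.75 TPM, and 27.7 and 28.7 in the second. Ttn-209 (3162 nt) had 16.54 and 18.08 TPM, and 13.1 and 15.5 in the second. These 3 each have from 24 to 70 of their own 31-mers, and their values in the 2 quantifications stayed within a factor of 1.5. Ttn-213 (3406 nt), which ends at 133.3 kb and has none of its own, had 3.57 and 4.31 TPM, and by the second quantification 14.1 and 15.4 TPM, a factor of 3.74. Across transcripts, more 31-mers of their own did not always go with closer values. Ttn-202 (6477), Ttn-206 (959) and Ttn-214 (135) had factors of 0.564, 0.319 and 2.69. Ttn-207 (1264) and Ttn-217 (957) had factors of 1.18 and 1.00. Ttn-223 had 1.48 and 0.57 TPM, and 1.93 and 1.65 in the second. Ttn-210 had 0.60 and 0.00 TPM, and 0.425 and 0.122 in the second.

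Several of the smallest fragments were at or near 0 in the first quantification and present in the second. Ttn-220 had 0 counts in both libraries of the first quantification, where the authors' credibility intervals ended at 0.265 and 0.273 TPM, and 16.1 and 13.6 TPM in the second. Ttn-221 was at 0 in the first and at 7.50 and 7.96 TPM in the second, and Ttn-208 at 0 and at 7.15 and 6.64 TPM. Ttn-216 had 0.22 and 0.00 TPM, and 7.51 and 5.59 TPM in the second. These 4 are 451 to 744 nt long and have no 31-mer of their own, and their mean estimated counts in the second quantification were 35.5 to 86.6. Ttn-212 had at most 0.278 TPM in all 4 estimates, and Ttn-224 and Ttn-225, of 271 and 300 nt, had 0 counts in all of them. A count of 0 allows up to 3 counts for counting error alone.

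The 4 non-coding transcripts were low but were detected in both animals and in both quantifications. Ttn-207, a retained intron at the 5′ end that reaches 18.3 kb, had 6.70 and 7.92 TPM in the first quantification, and 7.92 and 9.30 in the second. Ttn-206, a retained intron at 44.0 to 46.6 kb, had 3.32 and 3.66 TPM, and 1.10 and 1.13 in the second. Ttn-217, the retained intron that ends at 9.49 kb, had 2.43 and 3.12 TPM, and 2.21 and 3.34 in the second. The processed transcript Ttn-214 (627 nt) had 1.99 and 2.39 TPM, and 5.86 and 5.92 in the second. The first 3 rest on intron sequence, with 957 to 1264 31-mers of their own each, and total RNA libraries also hold unspliced RNA, whose part in these levels was not tested. Across 8939 genes with both kinds of transcript, the median gene had 11.0% of its TPM in non-coding transcripts, and 15.3% of genes had a lower share than the 1.41% of Ttn.

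**Figure D3:**
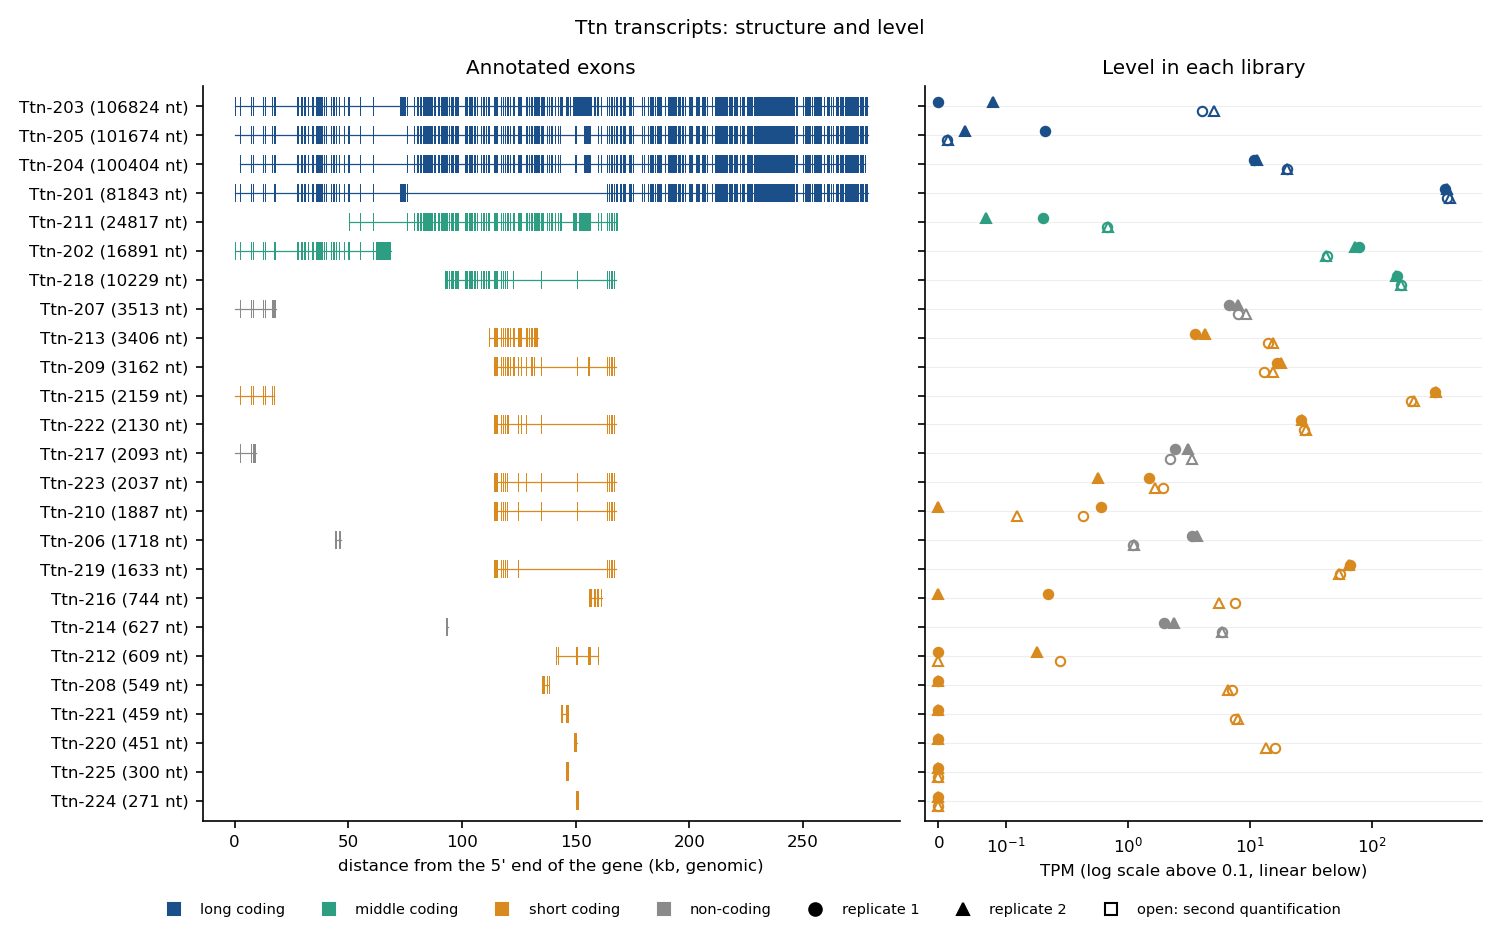
The 25 Ttn transcripts in order of length, with their annotated exons by genomic distance from the 5′ end of the gene in kb (left) and their TPM in each library (right, log scale above 0.1). Filled symbols are the first and open symbols the second quantification, circles replicate 1 and triangles replicate 2: the 2 animals lie within 1.5-fold for 13 of the 14 transcripts with a mean of at least 1 TPM in both quantifications (the exception is Ttn-223 in the first and Ttn-217 in the second), while filled and open symbols lie apart for Ttn-203, Ttn-213 and several short fragments.

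In sum over transcripts, 13 of 25 reached a TPM of at least 1 in both libraries in the first quantification and 19 in the second, and all 13 were among the 19. Of the 14 with a mean of at least 1 TPM in both quantifications, 13 had ranges over the animals that did not overlap between quantifications. The second quantification was the higher for 8 of these and the lower for 5. The 2 means lay within 1.5-fold of each other for 7 of the 14, whereas the 2 animals lay within 1.5-fold for 13 of the 14 in either quantification. By TPM the transcripts were thus set further apart by the quantification than by the animal. TPM divides counts by an effective length, and this too differed between the quantifications. In replicate 1 it was 352 and 139 nt for Ttn-220, but 81744 and 81514 nt for Ttn-201. For Ttn-214 the second quantification was 2.69 times the first by TPM and 1.56 times by counts. For Ttn-203 the factors were 114 and 113, but its mean in the first quantification was near 0, at 0.04 TPM, with 4.36 and 269.17 expected counts. By TPM and by counts the factors were 0.564 and 0.570 for Ttn-202, 0.641 and 0.584 for Ttn-215, and 3.74 and 3.56 for Ttn-213. The part of effective length in these and the other differences was not tested.

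Between the animals, 17 transcripts had enough counts to be tested in the first quantification and 4 were called, against 11.9% of 28890 transcripts called in all. At any fold 13 of the 17 passed the adjusted p, against 36.9% of all. Ttn-203 was called higher in replicate 2, and Ttn-205, Ttn-211 and Ttn-223 were called lower. All 4 had mean levels of 0.040 to 1.03 TPM, and for each the authors' credibility intervals of the 2 animals overlapped. The posterior mean counts of Ttn-203 were 217.36 and 220.27, against expected counts of 4.36 and 269.17. The test compares the reads of 2 libraries and leaves out the error of dividing shared reads between transcripts. In the second quantification none of 21 tested Ttn transcripts was called, where 12.7% of all transcripts were, although 9 of the 21 passed the adjusted p at some smaller fold, where 37.2% of all transcripts did at any fold, and 9 had an unadjusted p under 0.05. None of the 4 calls was thus found in both quantifications.

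The junctions into the exon that starts at 163.7 kb, late in the spring region, were compared next, as sums of transcript TPM and not as junction reads. Every transcript that holds this exon enters it by 1 of 6 donors, the sequences of which are given above. Ttn-201 supplied 58.5% and 59.6% of the TPM entering it in the 2 animals (59.0 ± 0.73%, SD, n = 2), and 58.8 ± 0.51% in the second quantification. The donor at 150.8 kb, used by Ttn-218, Ttn-210 and Ttn-223, supplied 23.4 ± 0.60% and 24.3 ± 0.51%. The 2 quantifications lay within the spread of the animals for the Ttn-201 junction.

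The remaining donors carried less. The one at 124.6 kb (Ttn-219) supplied 9.56 ± 0.30% in the first quantification and 7.55 ± 0.25% in the second. The one at 135.2 kb (Ttn-222) supplied 3.85 ± 0.01% and 3.90 ± 0.02%, and the one at 156.1 kb (Ttn-209) 2.52 ± 0.13% and 1.97 ± 0.19%. The last donor before the exon, at 161.4 kb, used by Ttn-203, Ttn-204, Ttn-205 and Ttn-211, supplied 1.66 ± 0.04% and 3.50 ± 0.03%. So 40.95 ± 0.73% of the TPM, and 41.2 ± 0.51% in the second quantification, entered from donors other than that of Ttn-201, most of it through fragments whose course outside 92.6 to 168 kb is not annotated. Of the 4 long transcripts, 3 use the donor at 161.4 kb, 1 the donor at 76.3 kb and none the other 4 donors.

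**Figure D4:**
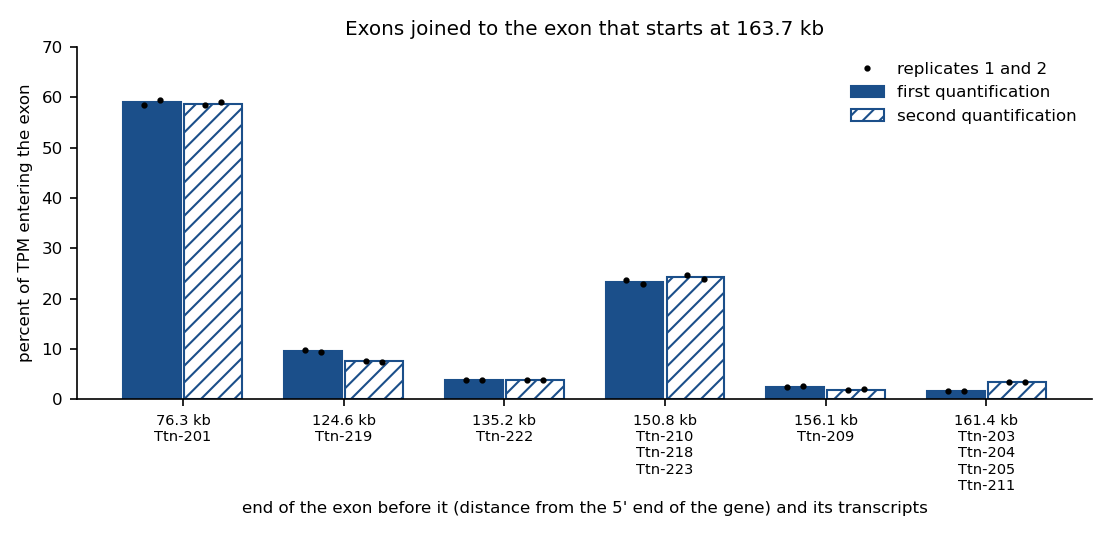
Percent of the TPM entering the exon at 163.7 kb from each of 6 donors, ordered by distance from the 5′ end of the gene and labelled with the transcripts that use them. Filled bars are means of the first quantification, hatched bars of the second, and points the 2 animals: the long junction of Ttn-201 takes 59.0% and the donor at 150.8 kb 23.4% in the first.

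A further 3 exons separate the forms. The N2B exon of 2646 nt (chr2:76907308-76909953, 72.6 kb) was included in 97.3 ± 0.02% of the TPM of the transcripts spanning it in the first quantification and in 95.4 ± 0.13% in the second. The last exon of Ttn-202, of 6520 nt (chr2:76913944-76920463), was used in 15.3 ± 1.06% and 8.62 ± 0.34%, so novex-3 was a minority by either count. An exon of 138 nt at 16.6 kb (chr2:76965777-76965914) was skipped in Ttn-201 and Ttn-202 and included in the other transcripts that span it.

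This 138-nt exon lies in a row of 5 exons of 132 to 138 nt, the place of the Z-repeats with which titin binds alpha-actinin in the Z-disc. The other 4 of the row were in every transcript that spans them. The skipped exon is printed in capitals and its neighbours on each side in lower case. All are given 5′ to 3′ in the sense of the gene, so that they can be compared.
exon at 15.4 kb: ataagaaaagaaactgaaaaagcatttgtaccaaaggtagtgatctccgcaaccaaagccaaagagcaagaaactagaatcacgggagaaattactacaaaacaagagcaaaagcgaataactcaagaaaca
exon at 16.6 kb: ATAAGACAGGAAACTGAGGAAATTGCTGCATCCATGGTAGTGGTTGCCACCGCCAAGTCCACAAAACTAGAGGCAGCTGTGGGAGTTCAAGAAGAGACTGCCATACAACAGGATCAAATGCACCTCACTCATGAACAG
exon at 17.3 kb: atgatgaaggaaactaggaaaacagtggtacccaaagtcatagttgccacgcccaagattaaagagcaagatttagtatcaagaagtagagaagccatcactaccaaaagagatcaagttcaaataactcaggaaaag

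In a global alignment the 16.6-kb exon had 59.4% identical bases with the exon before it and 57.2% with the one after it. It was included in 42.3% and 42.2% of TPM in the 2 animals in the first quantification and in 34.3% and 34.9% in the second. Nearly all of the included TPM, 332.09 of 349.72 in replicate 1, was that of Ttn-215. That fragment is told apart from Ttn-201 and Ttn-202 at the 5′ end by this exon and by its further 5′ start.

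The TPM of all transcripts that hold a given exon stretch can be added up along the gene, which shows how the fragments are stacked on Ttn-201. These sums are of the authors' transcript levels and not of read coverage. In the exons of Ttn-201 the sum was 834 ± 9.74 TPM up to 17.5 kb, where Ttn-215 ends, and 493 ± 6.44 TPM from there to 61.0 kb, where Ttn-202 parts. In the exons from 72.6 kb to the donor at 76.3 kb it was 407 ± 10.3 TPM. From the acceptor at 163.7 kb to the end of the fragments at 168 kb it was 578 ± 9.47 TPM, and over the last 67500 nt of exons it was 417 ± 10.7 TPM.

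The 5′ stretch was 2.00 ± 0.03 times the 3′ stretch in the first quantification and 1.59 ± 0.004 times in the second. For the stretch after the acceptor the ratio was 1.39 ± 0.01 and 1.37 ± 0.01. The exons that Ttn-201 skips had a mean sum of 77.7 ± 0.08 TPM in the first quantification and 97.7 ± 0.92 TPM in the second, and at most 286 and 285 TPM in the 2 animals in the first. Past 168 kb only the 4 long transcripts are annotated, so the sum over this longest stretch is fixed by their TPM. It was close to the level of Ttn-201, the highest of the 4. The excess of the gene's TPM of 1116 over this sum lay in Ttn-202 and in the fragments at the 5′ end and in the I-band.

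**Figure D5:**
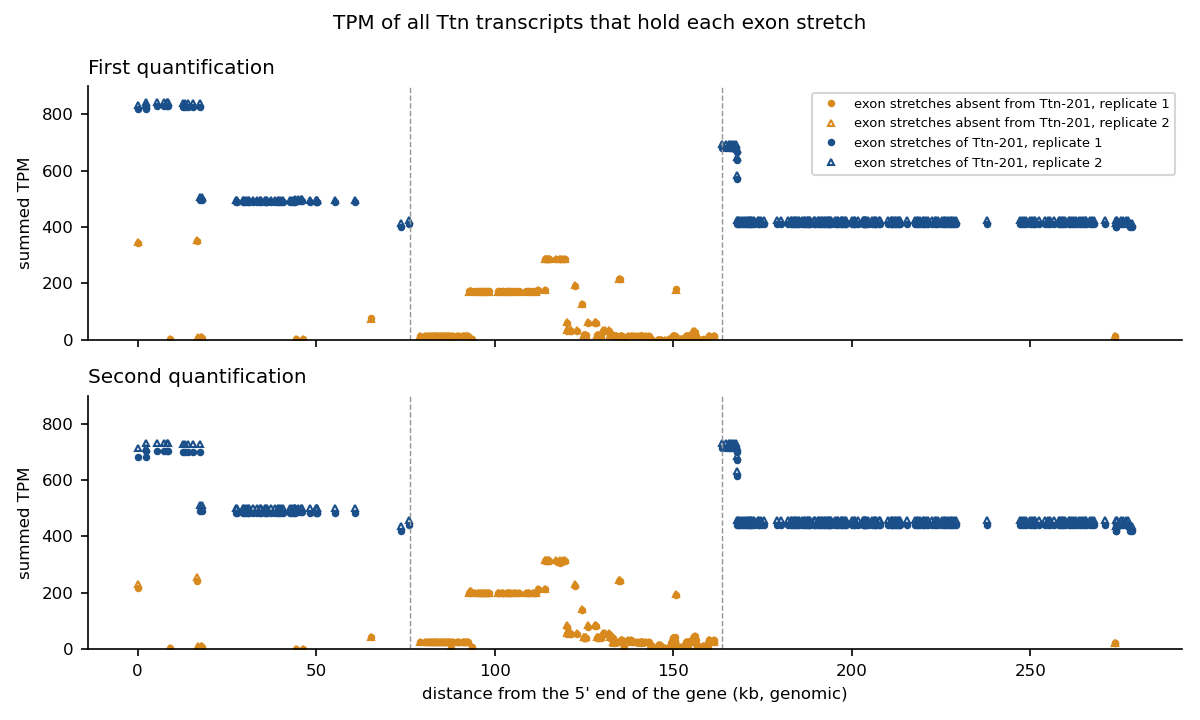
Summed TPM of all Ttn transcripts that hold each exon stretch, against genomic distance from the 5′ end of the gene in kb, for the first (top) and the second (bottom) quantification. Blue points are stretches of Ttn-201 and orange ones are absent from it, circles are replicate 1 and triangles replicate 2, and dashed lines mark the donor and acceptor of its long junction: the sum falls after 17.5 kb and steps up between 163.7 and 168 kb in both.

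Genes whose products bind titin, lie beside it or splice its RNA were given as a list of 40, of which 36 reached 1 TPM or more in each library, with a median of 86.0 TPM. None of the 38 with enough counts was called between the libraries at 2-fold, beside 1.53% of all genes. At any fold 22 of the 38 passed the adjusted p, where 21.9% of all genes did, and 24 had an unadjusted p under 0.05. With edgeR's exact test 2 had an unadjusted p under 0.05 and 0 passed after adjustment, but its dispersion comes from the spread between the same 2 libraries, so it is no independent check. The median log2 ratio of the list was -0.003, against 0.0005 over all genes tested.

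All 10 Z-disc genes were detected. By mean TPM in the first quantification the highest was Tcap, telethonin, which caps the end of titin in the Z-disc, at 912 and 1149 TPM. In the second quantification Csrp3, muscle LIM protein, had the higher mean (1101 against 970 TPM). The lowest was Neb in both. Of 10 I-band genes 8 were detected, led by the small heat shock protein Cryab (1054 and 957 TPM), with Ankrd2, a stretch-responsive ankyrin repeat protein mostly of skeletal muscle, lowest at 0.06 and 0.13 TPM. Of 6 A-band genes 5 were detected, from Myh6 (8321 and 8958 TPM) down to Mybpc1, the slow skeletal myosin-binding protein C (0.10 and 0.14 TPM). Myh6 was the only gene of the list above Ttn by mean TPM in the first quantification. In the second, 4 were above its 1049 TPM: Myh6 (7694), the slow myosin heavy chain Myh7 (1774), Cryab (1529) and Csrp3 (1101). The first ranking rests on the length given to Ttn. At the 466 TPM that Ttn would have with the effective length of Ttn-201, further genes of the list, among them Tcap and Cryab, would lie above it.

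Of 9 M-band genes 8 were detected, led by myomesin Myom1 (408 and 388 TPM), with Myom3 lowest at 0.35 and 0.31 TPM. All 5 splicing factors were detected. By mean TPM in the first quantification the highest was Rbm20, which represses inclusion of the I-band exons of titin, at 79.50 and 77.98 TPM. Mbnl1, another splicing factor, had 75.96 and 78.35 TPM, and in the second quantification it was above Rbm20 in both animals (107 and 117 against 85.4 and 89.4 TPM). In both quantifications the lowest was Ptbp1, polypyrimidine tract-binding protein, at 18.86 and 18.34 TPM. With 2 animals of 1 group no relation between the splicing factors and the junction shares of Ttn can be tested.

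Across genes, the second quantification gave Ttn a lower TPM than the first, unlike most genes. The log2 ratio of the second to the first was -0.09 for Ttn and 0.21 for the median of the 11042 genes, and 7.89% of genes had a lower ratio. The estimated counts of Ttn went the other way, 1.08 ± 0.004 times those of the first quantification. Of the 9 genes next in length, 6 also had a negative log2 ratio, among them -0.02 for Syne1 and -0.32 for Syne2.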

How the data were processed

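Total RNA-seq of 2 mouse hearts was quantified by the authors against build mm10 with annotation M21, as the deposited description files say. For programs and versions, none is given in the sources used here. Deposited by the authors as the first quantification are expected counts (reads divided between transcripts, not normalized) and TPM, per the file headers. The authors' FPKM signal, as deposited, was normalized for length and library size but not rescaled to a fixed sum, unlike TPM. The first quantification also holds the percent of a gene's TPM in each transcript and the authors' credibility bounds of TPM. The second holds the authors' estimated counts and TPM per transcript, summed here per gene. The tables held 26248 rows named only by a number, which were left out. Both used a C57BL/6J reference, and the effect of CAST alleles on the counts was not measured.

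Exons, junctions and 31-mers were taken from GENCODE M21. Expected counts were rounded, and each gene or transcript with a summed count of at least 50 was compared by an exact two-sided binomial test against TMM sizes of edgeR 4.0.16 and adjusted by Benjamini-Hochberg across the whole table, called at an adjusted p under 0.05 and at least 2-fold, with 0.5 added to counts for ratios. DESeq2 1.42.0 size factors, scipy 1.17.1 and Biopython 1.88 were also used. Libraries held 38845613 and 38168674 mouse counts. Intervals at 95% and the limit of 3 counts take in counting error alone, because reads lacking molecular identifiers need not be separate molecules.

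The member gene and the lists were chosen with earlier results of these data known. Named were Ttn and all its transcripts, genes within its span, the highest, lowest and called genes of each partner sub-list, the 3 nearest nuclear coding genes above and below by TPM and by count, and the 10 genes with the longest transcripts, of which 1 is not reported here. Amino acid sequences were not used here.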

Additional observations from a re-analysis of the deposited data

How the results depend on the processing

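Of 51 recalculations under other settings, 13 moved a value by more than the SD of the animals or a count by more than 1.5-fold, as follows. The log2 ratio of the gene stayed above 0 and uncalled in each of its recalculations. The mean level of Ttn (1116 TPM) became 2852 TPM when scaled to nuclear protein-coding genes only, 1093 as posterior mean TPM, 1049 in the second quantification and 466 at the length of Ttn-201 (added after seeing the data). The long coding share (37.4%) became 89.96% by expected counts, 42.9% in the second quantification and 58.4% with long counted from 10000 nt. The short coding share (40.2%) became 2.39% and 34.7%, and the non-coding share (1.41%) 0.098% and 1.75%, under those first 2 settings. Leaving out an animal gave 1110 to 1122 TPM, 36.9 to 37.8%, 40.1 to 40.3% and 1.30 to 1.52% for these 4 values. With no count filter 10264 transcripts were called in place of 3448, from 75124 tested in place of 28890. In the second quantification 0 Ttn transcripts were called in place of 4. The log2 ratio of the gene between animals ranged from 0.02 (total counts) to 0.34 (spike-ins), and genes called from 142 to 313. The majority direction of the called genes turned with the spike-in scaling. Those higher in replicate 2 were 75 of 210 as reported, 61 of 226 by total counts and 167 of 250 by spike-ins. Counting transcripts annotated as nonsense-mediated decay as coding changed nothing, since Ttn has none. No paired analysis was possible because there is 1 group. Depth did not limit the gene, with 1178150 or more counts per library. The shortest fragments rest on fewer than 100 mean counts each.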
